A study of Mus musculus with 10 samples.

Results

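The 53 genes described here code for the machinery that copies DNA in S phase and for the enzymes that supply its nucleotides. They were chosen by symbol from textbook roles, with earlier results of these data known. Of them, 52 were among the 19505 named genes measured on 10 Clariom S Mouse arrays. Mcm7 was not analysed here. Total RNA came from complete colon tissue of wild-type C57BL/6 mice in which colitis had been induced with 3% dextran sulfate sodium (DSS), a polysaccharide that injures the colonic epithelium, in the drinking water, and with an anti-PD1 antibody given into the peritoneum. On 5 arrays, the ECP arrays, the mice had also been given donor cells treated by ECP (extracorporeal photopheresis, in which blood cells outside the body get a light-activated drug and then ultraviolet A). On 5 control arrays the mice had colitis from DSS and anti-PD1 without donor cells. The labels give neither the age of the mice nor the kind of donor cell, and they do not say that each array is a separate mouse. The p-values therefore measure only the spread between samples, which may be technical. Mice without colitis and mice given untreated donor cells were not analysed here. The comparison addresses what the transfer of ECP-treated cells changed in colitic colon.

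Before a cell divides, each origin of replication is licensed by loading the MCM helicase onto DNA, a step carried out by the origin recognition complex, Cdc6 and Cdt1 and limited by geminin. In S phase the kinase Cdc7 with its activator Dbf4 turns the loaded MCM ring into a moving helicase together with Cdc45 and the GINS complex. Polymerase alpha with primase makes the primers, and polymerases delta and epsilon, held to DNA by the sliding clamp PCNA, copy the strands. Ribonucleotide reductase, thymidylate synthase and thymidine kinase supply deoxynucleotides. In the colon most of these cells lie in the lower crypt, and immune cells can divide too, so a whole-tissue level depends on how many cells are in cycle. Fewer such cells and less RNA per cell cannot be told apart in tissue RNA.

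No replication gene passed the threshold of 0.05 on the p-value adjusted over all genes, and the shift of the group was small. With limma, 0 of 52 members and 0 of 19505 genes (0%) had an adjusted p under 0.05. At an unadjusted p under 0.05, 10 of 52 members (19.2%) were lower in the ECP arrays, against 2.77% of all genes, and 0 of 52 were higher, against 2.31% of all genes. The 10 were Asf1b, Tyms, Tk1, Dbf4, Mcm5, Lig1, Gins3, Pole2, Rrm1 and Pole. By direction alone 40 of 52 members (76.9%) were lower in the ECP arrays, against 46.7% of all genes. The median difference, ECP minus control on the log2 scale, was -0.074 over the members and 0.0078 over all genes. Of the 52, 28 lay within 0.1 of 0, 11 were lower by 0.2 or more and 0 were higher by 0.2 or more. For 2 members (3.85%), Asf1b and Tyms, the highest ECP array was below the lowest control array, against 0.831% of all genes. The opposite order held for 0 members, against 0.39% of all genes. Because the members were chosen with earlier results known, these shares are described without a test.

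**Figure D1:**
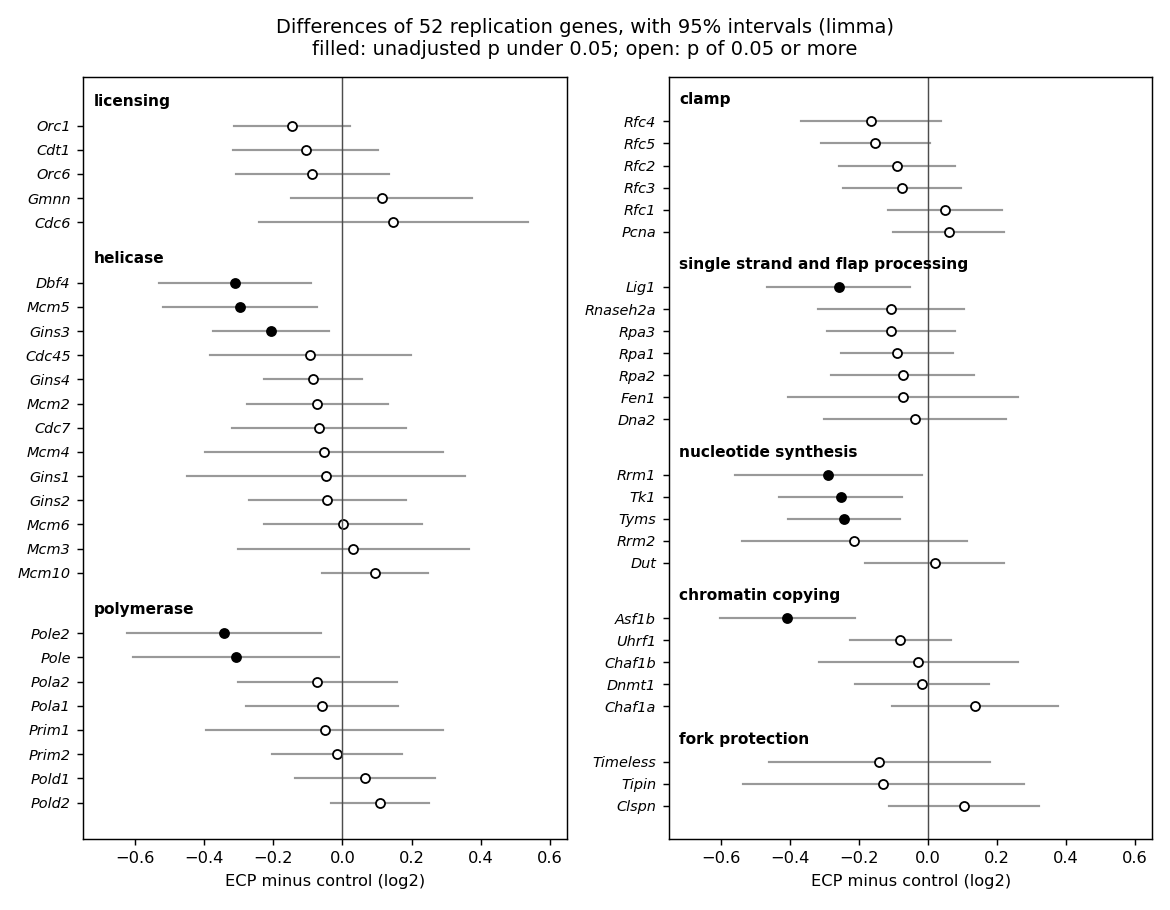
Each point is the difference between the means of 5 ECP and 5 control arrays (log2, horizontal axis) of one gene, with its 95% interval from limma, grouped by step of replication. Filled points mark the 10 genes with an unadjusted p under 0.05, all of them left of 0. The intervals of the other 42 genes span 0.

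Nucleotide supply was the step with the largest median difference of the 8, at -0.24 over its 5 genes. Of the 5, 3 were lower at an unadjusted p under 0.05, against 2.77% of all genes. Tyms codes for thymidylate synthase, which makes dTMP from dUMP. Tyms was at 8.91, 8.89, 8.94, 8.82 and 8.64 in ECP replicates 1 to 5, against 9.15, 9.0, 8.99, 9.16 and 9.11 in control replicates 1 to 5 (log2 RMA intensity, here and below). No ECP array reached the lowest control array. The group means were 8.84 ± 0.12 in ECP and 9.08 ± 0.08 in control arrays (SD, n = 5 each), which differed by -0.24 (SE 0.074). The limma p was 0.00701 unadjusted and 0.677 adjusted.

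Tk1 codes for cytosolic thymidine kinase, which salvages thymidine. Its levels were 6.74, 6.87, 6.93, 7.02 and 6.87 on the ECP arrays, against 7.35, 7.08, 7.12, 7.15 and 6.97 on the control arrays, and 4 of 5 ECP arrays lay below the lowest control array, control replicate 5. The difference was -0.25 (SE 0.082, limma adjusted p = 0.728). Rrm1 and Rrm2 code for the large and the small subunit of ribonucleotide reductase, which turns ribonucleotides into deoxyribonucleotides. Rrm1 stood at 7.94, 8.44, 8.36, 8.23 and 7.90 in ECP arrays, against 8.39, 8.51, 8.21, 8.72 and 8.45 in control arrays, with the low values in ECP replicates 1 and 5 and overlapping groups. Rrm2 stood at 8.29, 8.23, 8.51, 8.27 and 7.89 in ECP arrays, against 8.51, 8.29, 8.27, 8.97 and 8.23 in control arrays, and here the groups overlapped widely, with the lowest value in ECP replicate 5 and the highest in control replicate 4. The differences were -0.29 (SE 0.12) for Rrm1 and -0.21 (SE 0.15) for Rrm2. The difference of Rrm2 was -0.085 without control replicate 4 and -0.13 without ECP replicate 5, and it turned to 0.023 with the level of pancreatic acinar markers as a covariate. Dut, the dUTPase gene that keeps uracil out of DNA, was the exception in this step, with a difference of 0.020 and a 95% interval of -0.18 to 0.22.

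Copying of chromatin held the member with the smallest p. Asf1b codes for a histone chaperone that hands histones H3 and H4 to chromatin assembly behind the fork. Asf1b was at 8.23, 8.30, 8.55, 8.37 and 8.41 in ECP arrays, against 8.80, 8.80, 8.63, 9.02 and 8.64 in control arrays, so that the groups did not overlap, with control replicate 4 highest. The group means were 8.37 ± 0.12 in ECP and 8.78 ± 0.16 in control arrays (SD, n = 5 each), and the difference of -0.41 (SE 0.090) makes the ECP level 24.6% lower on the linear scale. The unadjusted p was 0.000718 and the limma adjusted p was 0.230, with 60 of all genes at a smaller p. The other 4 members of the step had smaller differences, and their median together with Asf1b was -0.028, which turned to 0.024 without control replicate 4.

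Uhrf1 and Dnmt1, which copy DNA methylation onto the new strand, differed by -0.079 and -0.017. Uhrf1 was at 8.53, 8.77, 8.80, 8.63 and 8.77 in ECP arrays, against 8.76, 8.76, 8.80, 8.79 and 8.78 in control arrays, where the control values lay close together and ECP replicates 1 and 4 were below them. The large subunit of the assembly factor CAF-1, Chaf1a, was at 6.95, 7.07, 7.20, 6.95 and 7.03 in ECP arrays, against 7.32, 6.70, 6.86, 6.79 and 6.85 in control arrays, a difference of 0.14 with control replicate 1 alone above the ECP arrays. Without control replicates 1 and 4, Chaf1a differed by 0.24 (limma, unadjusted p = 0.0147, adjusted p = 0.65). The CAF-1 subunit gene Chaf1b differed by -0.028.

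**Figure D2:**
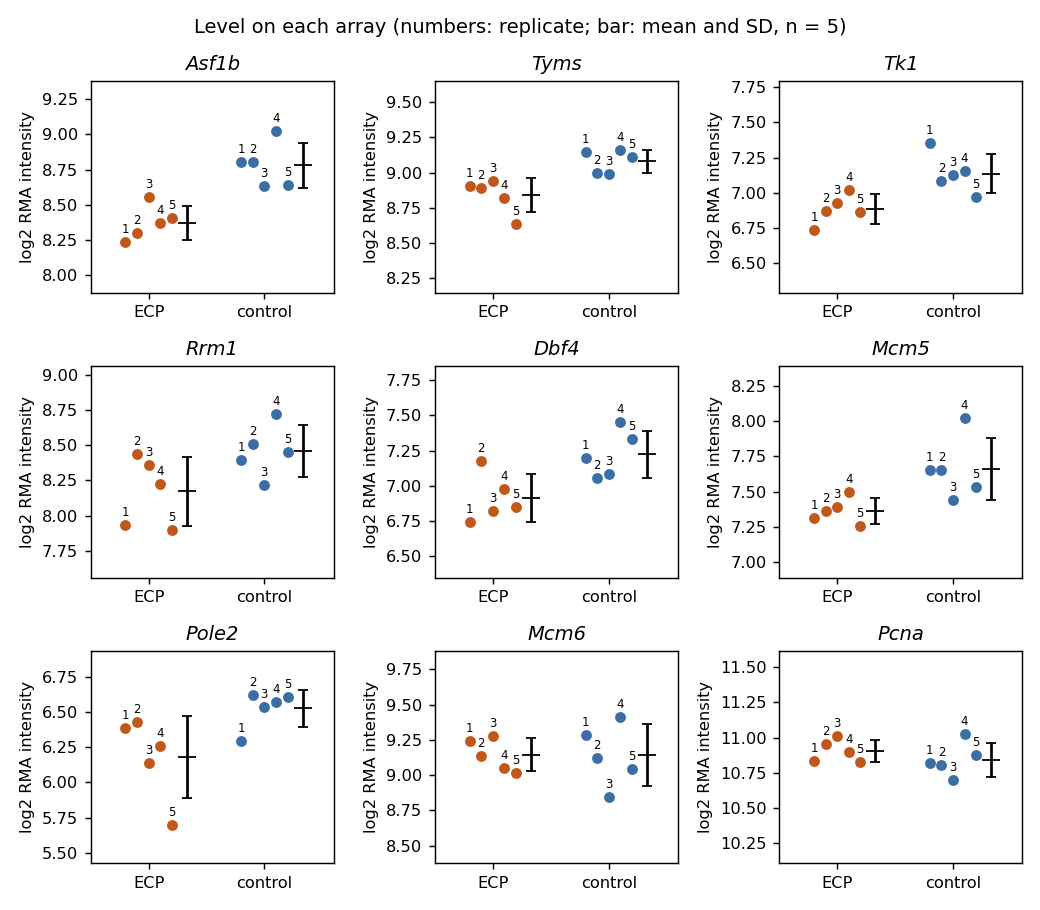
Levels of 9 genes on each array (log2 RMA intensity, vertical axis), with replicate numbers above the points and the mean and SD of 5 arrays as a bar. ECP and control arrays do not overlap for Asf1b and Tyms, they overlap for the other 7, and for Mcm6 and Pcna the means nearly coincide.

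Helicase genes ranged from -0.31 in Dbf4 to 0.094 in Mcm10. The MCM proteins form a hexameric ring that unwinds DNA, and 5 of its 6 subunit genes were measured. Mcm5 was at 7.31, 7.36, 7.39, 7.50 and 7.26 in ECP arrays, against 7.65, 7.65, 7.44, 8.02 and 7.53 in control arrays, with 4 of 5 ECP arrays below the lowest control array and control replicate 4 the highest. Its difference was -0.30 (SE 0.10, 95% interval -0.52 to -0.074, limma adjusted p = 0.801). The other 4 ring subunits measured were nearer 0, at -0.072 for Mcm2, 0.031 for Mcm3, -0.054 for Mcm4 and 0.0020 for Mcm6, which turned to -0.0038 with each array centred on its median. The size seen in Mcm5 lies outside the 95% intervals of Mcm2 (-0.28 to 0.13) and Mcm6 (-0.23 to 0.23) and inside those of Mcm3 (-0.30 to 0.37) and Mcm4 (-0.40 to 0.29). The interval of Mcm5 itself overlaps those of all 4. Whether Mcm5 differed from the other ring subunits was not tested.

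Dbf4, the activating subunit of the Cdc7 kinase, was at 6.75, 7.18, 6.82, 6.97 and 6.85 in ECP arrays, against 7.20, 7.06, 7.08, 7.45 and 7.33 in control arrays. ECP replicate 2 alone overlapped the control arrays, and the difference was -0.31 (SE 0.10, limma adjusted p = 0.730). The kinase gene Cdc7 itself differed by -0.067, with a 95% interval of -0.32 to 0.19. Gins3, a subunit of the GINS complex that links the MCM ring to Cdc45, was at 7.18, 7.32, 7.31, 7.20 and 7.21 in ECP arrays, against 7.35, 7.52, 7.41, 7.66 and 7.31 in control arrays, with the groups meeting only at 7.31 to 7.32. Its difference was -0.21 (SE 0.077, limma adjusted p = 0.865). The other GINS genes were at -0.046 (Gins1), -0.044 (Gins2) and -0.085 (Gins4), and Cdc45 was at -0.093. Mcm10, which helps to start the helicase, ran the other way at 0.094 (95% interval -0.059 to 0.25). Of 13 helicase genes 10 were lower, against 46.7% of all genes, and 3 of them at an unadjusted p under 0.05, against 2.77%. The median of the step was -0.067. That median was -0.0049 without control replicate 4, -0.0087 without ECP replicate 5 and -0.15 without control replicate 3.

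Licensing genes showed no member at an unadjusted p under 0.05. Orc1, the largest subunit of the origin recognition complex, was at 7.17, 6.85, 6.96, 7.12 and 7.07 in ECP arrays, against 7.19, 7.14, 7.07, 7.31 and 7.17 in control arrays, with 3 of 5 ECP arrays below the lowest control array, 1 of them by less than 0.1. The loading factor gene Cdt1 was at 8.01, 8.02, 8.21, 8.09 and 7.93 in ECP arrays, against 7.92, 8.14, 8.17, 8.45 and 8.09 in control arrays, and control replicate 4 alone stood above the ECP range. Gmnn, which codes for geminin, an inhibitor of Cdt1, was at 5.64, 5.94, 6.23, 6.18 and 5.89 in ECP arrays, against 5.73, 5.72, 6.03, 5.76 and 6.07 in control arrays, with both the lowest and the highest arrays in the ECP group. The differences of these genes were -0.15 for Orc1, -0.11 for Cdt1 and 0.11 for Gmnn. Orc6 differed by -0.087, and Cdc6, the other loading factor, by 0.15 with a wide 95% interval of -0.24 to 0.54. The median of the 5 licensing genes was -0.087, or -0.033 without control replicate 4 and -0.14 without control replicate 1.

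Of the 8 polymerase members 2, Pole and Pole2, were lower at an unadjusted p under 0.05, against 2.77% of all genes. Both code for subunits of polymerase epsilon, which copies the leading strand, while its small subunit genes Pole3 and Pole4, which are not members, were at 0.030 and 0.15. Pole2, the second subunit, was at 6.38, 6.43, 6.14, 6.26 and 5.70 in ECP arrays, against 6.29, 6.62, 6.54, 6.57 and 6.60 in control arrays. Control replicate 1 was the only control array inside the ECP range, and ECP replicate 5 was far the lowest. Pole, the catalytic subunit, was at 5.70, 5.91, 6.0, 5.50 and 5.69 in ECP arrays, against 6.12, 6.09, 5.62, 6.11 and 6.40 in control arrays, where control replicate 3 lay among the ECP arrays. The differences were -0.34 (SE 0.13, limma adjusted p = 0.886) and -0.31 (SE 0.14, limma adjusted p = 0.957). Pole2 and Pole are dim genes, below the lowest array median of 6.94 on every array. Of polymerase delta, which copies the lagging strand, the members Pold1 and Pold2 were at 0.066 and 0.11, and the small subunit genes Pold3 and Pold4, not members, at -0.020 and -0.017. Pold2 was at 9.91, 10.04, 9.90, 9.89 and 9.96 in ECP arrays, against 9.87, 9.80, 9.95, 9.70 and 9.83 in control arrays, with control replicate 3 within the ECP range and its 95% interval at -0.034 to 0.25. Polymerase alpha and primase, which make the primers, were at -0.059 (Pola1), -0.073 (Pola2), -0.052 (Prim1) and -0.017 (Prim2). The difference between polymerases was not tested. The median of the 8 genes was -0.055, and it turned to 0.023 without control replicate 4.

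Pcna codes for the sliding clamp and is widely used to mark dividing cells. It was at 10.84, 10.95, 11.01, 10.90 and 10.83 in ECP arrays, against 10.82, 10.80, 10.70, 11.03 and 10.88 in control arrays, and all 5 ECP arrays lay within the control range. The difference was 0.060, with a 95% interval of -0.10 to 0.22. Replication factor C loads the clamp. Of its 5 subunit genes 4 were lower in the ECP arrays, against 46.7% of all genes, and none reached an unadjusted p under 0.05. Rfc5 was at 7.06, 7.08, 6.99, 6.81 and 6.79 in ECP arrays, against 7.11, 7.13, 7.07, 7.10 and 7.08 in control arrays, where the control values spanned less than 0.1 and 4 of 5 ECP arrays lay below them. Rfc4 was at 8.12, 8.21, 8.14, 8.08 and 7.95 in ECP arrays, against 8.0, 8.22, 8.31, 8.28 and 8.52 in control arrays, with control replicate 1 inside the ECP range and control replicate 5 highest. Rfc2 was at 7.58, 7.83, 7.75, 7.65 and 7.81 in ECP arrays, against 7.79, 7.72, 7.81, 8.02 and 7.75 in control arrays, and only control replicate 4 stood above the ECP range. The differences were -0.15 for Rfc5 (unadjusted p = 0.0576, limma), -0.16 for Rfc4, -0.089 for Rfc2 and -0.075 for Rfc3. The large subunit gene Rfc1 was at 0.049, and the median of the step was -0.082.

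The genes that guard single strands and join Okazaki fragments were lower in 7 of 7 cases, by small amounts, against 46.7% of all genes. Of the 7, Rpa1, Rpa2, Fen1 and Dna2 changed sign under at least 1 alternative. Lig1 codes for the ligase that seals the lagging strand. It was at 6.37, 6.52, 6.62, 6.87 and 6.42 in ECP arrays, against 6.86, 6.71, 6.76, 6.94 and 6.80 in control arrays, with ECP replicate 4 alone inside the control range. Its difference was -0.26 (SE 0.095, limma adjusted p = 0.862). Subunits of the single-strand binding protein RPA came next by p. Rpa1 was at 8.65, 8.70, 8.75, 8.72 and 8.60 in ECP arrays, against 8.72, 8.66, 8.70, 9.0 and 8.79 in control arrays. Rpa3 was at 7.59, 7.73, 7.82, 7.57 and 7.55 in ECP arrays, against 7.97, 7.79, 7.74, 7.58 and 7.72 in control arrays, with overlap in both. Their differences were -0.089 and -0.11, and that of Rpa2 was -0.073. Fen1 and Dna2, nucleases that trim flaps, differed by -0.072 and -0.038, and Rnaseh2a, a subunit of the enzyme that removes ribonucleotides from DNA, by -0.11. The median of the step was -0.089.

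The fork protection genes code for claspin, which carries the checkpoint signal at stalled forks, and for the Timeless and Tipin pair, which keeps helicase and polymerase together. Clspn was at 6.58, 6.77, 6.55, 6.53 and 6.59 in ECP arrays, against 6.68, 6.75, 6.32, 6.47 and 6.28 in control arrays. Timeless was at 6.65, 6.64, 6.66, 6.40 and 6.63 in ECP arrays, against 6.99, 6.32, 6.61, 7.20 and 6.55 in control arrays, where control replicates 1 and 4 were high. Tipin was at 6.28, 6.30, 6.59, 6.48 and 5.49 in ECP arrays, against 6.08, 6.46, 6.32, 6.66 and 6.27 in control arrays, with ECP replicate 5 far below all others. The differences were 0.10, -0.14 and -0.13, none at an unadjusted p under 0.05. Their median of -0.13 turned to 0.057 without ECP replicate 5 and to 0.10 without control replicates 1 and 4.

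Arrays of both groups differed among themselves. The median over the 52 members of the deviation from each gene's control mean was -0.10, -0.031, -0.020, -0.057 and -0.17 on ECP replicates 1 to 5, against -0.013, -0.029, -0.094, 0.16 and -0.024 on control replicates 1 to 5. Control replicate 4 stood above every other array and control replicate 1 just above the highest ECP array, while control replicates 2, 3 and 5 lay within the ECP range. Control replicate 4 was the highest of the 10 arrays for 25 of 52 members. ECP replicates 1 and 5 were the lowest for 14 and 12 members, and control replicate 3 for 10. Without control replicate 4 the number of members lower in the ECP arrays was 32 of 52 with a median of -0.033, and without control replicates 1 and 4 it was 29 of 52 with a median of -0.026. The median of all genes was 0.0027 and -0.0016 in these fits. The share of all genes lower by any size was not counted in them.

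Of the 10 members lower at an unadjusted p under 0.05, 8 kept that side without control replicate 4 and 6 without control replicates 1 and 4 (Asf1b, Tyms, Dbf4, Mcm5, Gins3 and Pole2). In those fits 3.54% and 3.72% of all genes were lower at that p. The median of the nucleotide supply genes was -0.22 without control replicate 4 and -0.17 without control replicates 1 and 4. That of the helicase genes was -0.0049 and 0.043 in the same fits.

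**Figure D3:**
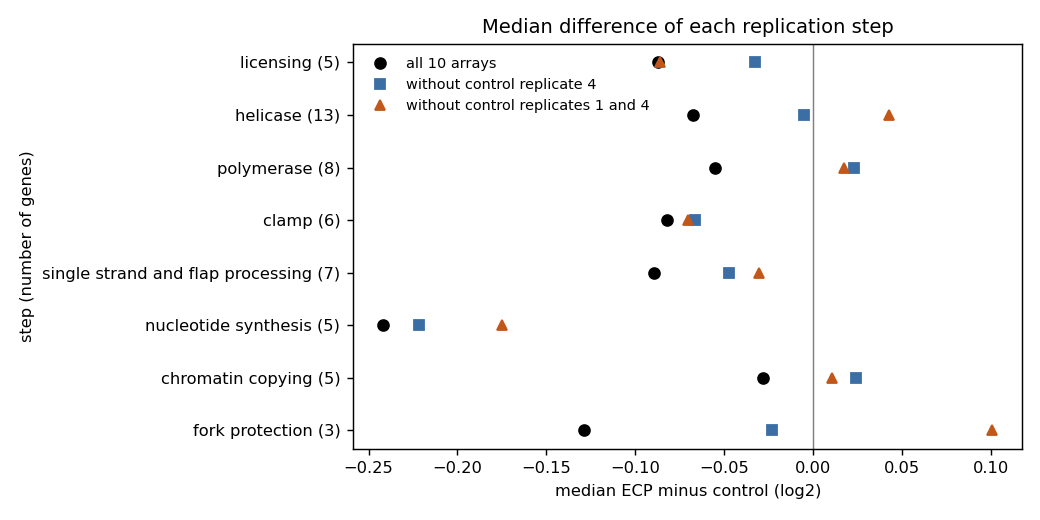
Median difference of each step (log2, horizontal axis; number of genes in brackets) with all 10 arrays, without control replicate 4, and without control replicates 1 and 4. With all arrays the 8 medians lie below 0. Without control replicates 1 and 4, those of helicase, polymerase, chromatin copying and fork protection genes lie above 0 and that of the nucleotide supply genes is lowest at -0.17.

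Control replicates 1 and 4 also stood apart in markers of other tissues and cells. All levels given here are means of log2 values over a marker list, which was put together with earlier results of these data known. Pancreatic acinar markers (13 of 15 measured) were at 5.56 to 5.75 in ECP arrays, against 10.42, 5.84, 5.72, 12.25 and 6.53 in control replicates 1 to 5. B cell markers (10 of 11 measured) were at 5.83 to 7.01 in ECP arrays, highest in ECP replicate 1, against 8.59 in control replicate 4 and 5.96 to 6.12 in the other controls. Germinal centre B cell markers (5 of 6 measured) were at 6.01 to 6.16 in ECP arrays and 5.96 to 6.17 in control arrays, and control replicate 4 was not the highest of them. T cell markers (7 of 8) spanned 6.07 to 6.53 in ECP and 5.99 to 7.27 in control arrays, neutrophil markers (8 of 8) 6.42 to 6.76 in ECP and 5.81 to 7.77 in control arrays, and macrophage markers (6 of 7) 8.25 to 9.09 in ECP and 7.74 to 8.98 in control arrays. Control replicate 4 had the highest control level of these 3 lists.

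Smooth muscle markers (8 of 8) were at 10.33 to 10.85 in ECP and 9.75 to 10.63 in control arrays, lowest in control replicates 1 and 4. Colon epithelium markers (10 of 11) were at 11.72 to 11.93 in ECP and 11.31 to 11.91 in control arrays, so that they were present on all 10 arrays and lowest in control replicate 4. Crypt base markers (7 of 9) were at 7.82 to 8.04 in ECP and 7.75 to 7.90 in control arrays. Of these 7 genes 2 were lower in the ECP arrays (28.6%), against 46.7% of all genes, and 5 were higher. Among the 5, Lgr5 at 0.23 and Cdca7 at 0.27 were higher at an unadjusted p under 0.05 (limma), against 2.31% of all genes. Adipocyte markers (6 of 6) were at 7.35, 6.38, 7.28, 7.38 and 7.49 in ECP replicates 1 to 5, against 5.97 to 7.04 in control arrays, so that 4 of 5 ECP arrays were above the highest control array. All 6 adipocyte genes were higher in the ECP arrays, 0 of them at an unadjusted p under 0.05 (limma). Fibroblast markers (4 of 5) were at 10.15 to 10.52 in ECP and 9.71 to 10.58 in control arrays. All 8 smooth muscle genes (1 at that p), 6 macrophage genes (0) and 4 fibroblast genes (0) were higher too. Of all 19505 genes 10393 were higher, and 2.31% were higher at that p. All 13 acinar genes (6 at that p) and 10 B cell genes (0) were lower, against 46.7% and 2.77% of all genes. With the acinar level as a covariate, 2 of the 10 members (Asf1b and Pole2) kept an unadjusted p under 0.05 and the median of all members was -0.0036. With the B cell level it was 8 of 10 and -0.065, and with the smooth muscle level 6 of 10 and -0.075. In these fits, in that order, 3.0%, 3.53% and 2.81% of all genes were lower at that p. The part of the other cell types in the result was not tested.

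Mitosis genes, which act after replication is finished, had larger differences on the same arrays. All 24 measured genes of a mitosis list were lower in the ECP arrays at an unadjusted p under 0.05, against 2.77% of all genes. Their differences were -0.60 to -0.34, with a median of -0.46. Among the 52 replication genes 1, Asf1b, lay within that span of differences, and Pole2 at -0.34 was just outside it. The per-array median deviations of the mitosis list were -0.66, -0.40, -0.56, -0.28 and -0.44 on ECP replicates 1 to 5, against 0.080, 0.039, -0.13, 0.041 and 0.045 on control replicates 1 to 5, without overlap. The order of the ECP arrays was not the same in the 2 lists. ECP replicate 3 was the second lowest ECP array for mitosis and the highest for replication, and ECP replicate 5 was the lowest for replication and the third lowest for mitosis. Without control replicates 1 and 4 the mitosis median was -0.44 with 24 of 24 lower at an unadjusted p under 0.05, against 3.72% of all genes. With the acinar level as a covariate the mitosis median was -0.43. The mitosis list was picked with its differences known, and the difference between the lists was not tested.

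**Figure D4:**
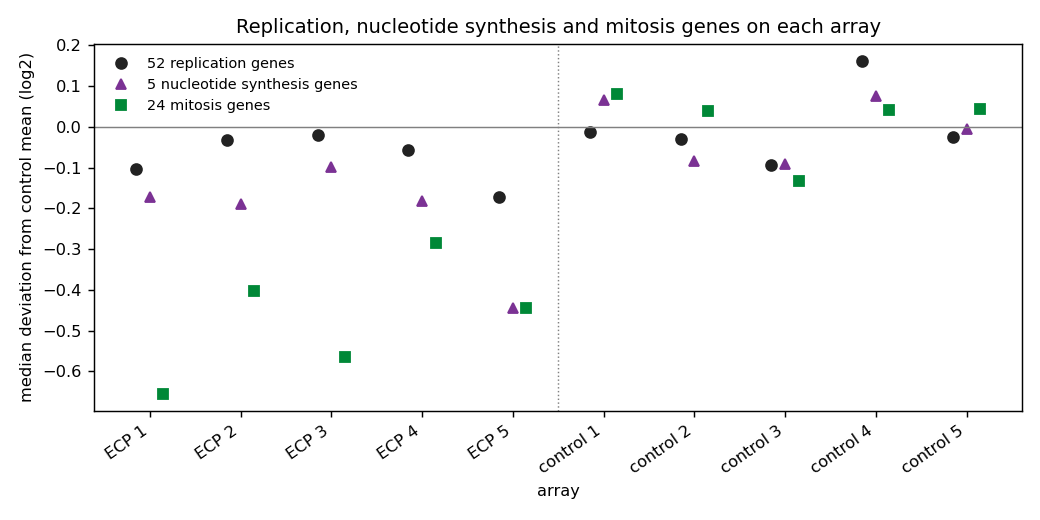
Median deviation from the control mean (log2, vertical axis) of 52 replication genes, their 5 nucleotide synthesis genes and 24 mitosis genes on each array. The mitosis genes lie at -0.28 or lower on all 5 ECP arrays and at -0.13 or higher on the control arrays, while the replication genes lie between -0.17 and -0.020 on the ECP arrays and between -0.094 and 0.16 on the control arrays.

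**Figure D5:**
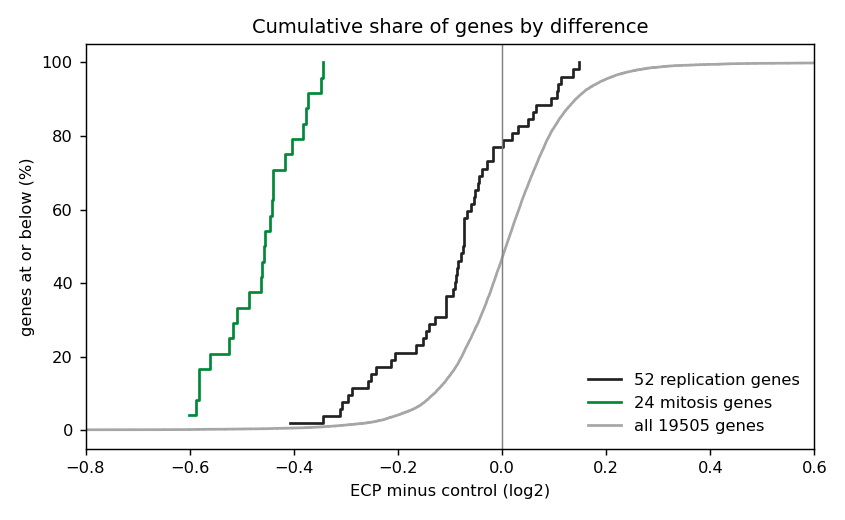
Cumulative share of genes (vertical axis, %) at or below a difference (ECP minus control, log2, horizontal axis) for 52 replication genes, 24 mitosis genes and all 19505 genes. The replication curve crosses 0 at 76.9% and the curve of all genes at 46.7%, while the mitosis curve ends at -0.34.

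Further genes of the pathway that are not members gave few differences. Of 22 measured replication factors, among them Orc2, Orc3 and Orc4, the smaller polymerase subunits and the alternative clamp loader, 15 (68.2%) were lower and 1 of them had an unadjusted p under 0.05, against 46.7% and 2.77% of all genes, with a median of -0.022. That gene was Chtf18, the large subunit of the alternative clamp loader, at 6.29, 6.06, 6.25, 6.27 and 6.38 in ECP arrays, against 6.88, 6.29, 6.57, 6.54 and 6.69 in control arrays, and differed by -0.34 (SE 0.10, limma adjusted p = 0.658). The next by p, the polymerase epsilon subunit gene Pole4, differed by 0.15. Of 9 replication chromatin genes 0 had an unadjusted p under 0.05 (limma), and their median was -0.0037. Asf1a, the paralog of Asf1b that is made outside S phase too, differed by -0.12 (95% interval -0.34 to 0.11), and Hat1, a histone acetyltransferase, by -0.077.

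Of 22 other nucleotide synthesis genes measured, 6 (27.3%) were lower in the ECP arrays, against 46.7% of all genes, and 16 were higher, with a median of 0.044. Rrm2b, which codes for the p53-inducible small subunit of ribonucleotide reductase used outside S phase, was the 1 gene of the 22 higher at an unadjusted p under 0.05, against 2.31% of all genes. It was at 7.02, 7.03, 6.92, 7.01 and 7.06 in ECP arrays, against 6.43, 6.59, 6.79, 6.99 and 6.66 in control arrays. Only ECP replicate 3 fell below control replicate 4, and every other ECP array was above all control arrays. Rrm2b differed by 0.32 (SE 0.096, limma adjusted p = 0.661). The purine synthesis gene Ppat came next by p, at -0.29.

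Promoter windows were compared because members of this group are known to share E2F sites, and because the members differed unevenly. RefSeq windows on GRCm38.p6, from 250 bases before to 50 after a gene's start, were found for 43 of 52 members. Matches on either strand to TTCGCGC, to its variant TTGGCGC, or to a further E2F form spelled GCGGGAA, letters that E2F factors are known to bind, occurred in 25 of 43 members (58.1%), against 12.3% of 15691 genes and 10.8% of all windows. In mitosis genes they occurred in 1 of 20. The letters TTTGAA on either strand, the core of the CHR element through which the DREAM complex acts, occurred in 9 of 43 members (20.9%), against 17.8% of all genes, and in 16 of 20 mitosis genes (80.0%). CCAAT on either strand, the NF-Y box, occurred in 26 of 43 members (60.5%), against 42.2% of all genes, and in 2 of 51 member windows it overlapped an E2F match. A match is a string of letters and no measure of binding.

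Over all genes 2.77% were lower at an unadjusted p under 0.05, which is the share beside each count here. The 25 members with E2F letters had a median difference of -0.072, with 5 lower at that p, and the 18 without had a median of -0.091, with 4 lower at that p. The 9 with CHR letters had -0.072, with 3 lower at that p, and the 34 without had -0.077, with 6 lower. The 26 with CCAAT had -0.074, with 4 lower at that p, and the 17 without had -0.11, with 5 lower. These differences between medians were not tested. The 200 bases before the start are shown for the 4 members with the smallest p that have a window, and, chosen after their values were seen, for Mcm5, a member with E2F letters, and for Pcna, whose groups overlapped. Capitals mark matches on either strand, and positions count back from the start.
Asf1b, chr8:83955494-83955693, plus strand, with CHR letters at -14 and 4 CCAAT matches: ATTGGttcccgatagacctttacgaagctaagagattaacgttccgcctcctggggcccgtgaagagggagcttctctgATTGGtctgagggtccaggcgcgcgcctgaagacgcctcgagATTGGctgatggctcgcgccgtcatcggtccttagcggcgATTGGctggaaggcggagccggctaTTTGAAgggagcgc
Tyms, chr5:30073626-30073825, minus strand, with no match: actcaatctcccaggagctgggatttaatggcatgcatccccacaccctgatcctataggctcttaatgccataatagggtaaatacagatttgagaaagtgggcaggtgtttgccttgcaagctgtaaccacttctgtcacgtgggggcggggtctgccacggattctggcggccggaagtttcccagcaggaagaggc
Tk1, chr11:117826015-117826214, minus strand, with no match: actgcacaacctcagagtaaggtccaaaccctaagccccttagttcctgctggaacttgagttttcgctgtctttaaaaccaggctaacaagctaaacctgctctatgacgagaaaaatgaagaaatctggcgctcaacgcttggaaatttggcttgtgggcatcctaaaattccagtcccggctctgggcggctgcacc
Dbf4, chr5:8422717-8422916, minus strand, with CHR letters at -3 that run past the start: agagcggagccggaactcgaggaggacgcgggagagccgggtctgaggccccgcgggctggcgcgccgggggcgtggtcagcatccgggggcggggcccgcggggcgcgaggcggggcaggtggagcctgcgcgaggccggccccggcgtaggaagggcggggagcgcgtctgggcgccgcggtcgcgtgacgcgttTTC
Mcm5, chr8:75109309-75109508, plus strand, with E2F letters at -164, -152 and -149: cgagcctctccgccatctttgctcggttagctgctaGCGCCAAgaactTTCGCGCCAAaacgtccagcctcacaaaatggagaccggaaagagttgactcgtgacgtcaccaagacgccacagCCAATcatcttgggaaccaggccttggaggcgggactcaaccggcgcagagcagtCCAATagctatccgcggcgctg
Pcna, chr2:132253181-132253380, minus strand, with 1 CCAAT match at -87: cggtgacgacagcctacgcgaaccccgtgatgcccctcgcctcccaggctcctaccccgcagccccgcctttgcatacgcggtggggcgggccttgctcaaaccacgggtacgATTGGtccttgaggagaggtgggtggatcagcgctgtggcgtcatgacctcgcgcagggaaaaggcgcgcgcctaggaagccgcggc
Of the 4 genes at the smallest p, 0 held the E2F letters in these windows and 2 held the CHR letters. That result depends on the cut at 4. Among all members with a window that were lower at an unadjusted p under 0.05, 5 held the E2F letters, and the 4 shown were those without. In the same set 3 held the CHR letters and 6 did not. Asf1b held both CHR letters and CCAAT, a pair that occurred in 5 of 43 members (11.6%), in 14 of 20 mitosis genes (70.0%) and in 7.26% of all genes. The 5 members with the pair had a median difference of -0.093, with 2 lower at an unadjusted p under 0.05, against 2.77% of all genes. Those without it numbered 38 and had a median of -0.074, with 7 lower at that p. The difference between these medians was not tested.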

How the data were processed

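The authors deposited log2 intensities of probe sets, and the submitters' processing notes name oligo and RMA, without versions. RMA gives all arrays one distribution, which would hide a shift common to most genes. The 22203 probe sets had values of 2.81 to 13.6, and array medians were 6.94 to 6.98. Pairwise correlations between arrays were 0.977 to 0.996. Of the probe sets 19572 had 1 gene symbol in the platform annotation, all matched to RefSeq by gene ID, and 2631 were unnamed. The probe set with the highest mean was kept for each gene, which left 19505 genes. No member had more than 1 probe set. The number of arrays limits the precision.

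Groups and replicate numbers came from the sample titles. The ECP arrays were set against the control arrays with lmFit and eBayes of limma (version 3.58.1, run in R 4.3.3), two-sided and without covariates. Benjamini-Hochberg adjustment ran over every gene, and the threshold was 0.05. The code was tested on simulated data. The members, steps, other lists, motifs and alternatives were chosen with earlier results of these data known, so lists are described by counts and medians without a test. Levels on every array are given for Pcna, Rrm2 and the 3 members of each step with the smallest p, and 2 genes are named from each other list. Pole3, Pold3 and Pold4 were added after their values were seen. Alternatives were 2 scalings, 2 filters on dim genes, the mean of probe sets, eBayes with trend and robust, weights per array, a replicate block, each array left out, control arrays 1 and 4, or 1, 4 and 5, left out, and 3 marker levels as covariates.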

Additional observations from a re-analysis of the deposited data

Results flagged for a closer look

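Each member was examined in each group of 5 arrays for 1 array lying apart, with a gap to its nearest neighbour above 0.71 of the group's range. This held in 15 of 104 groups, where chance alone gives about 5.2. ECP replicate 5 was low in 5 genes, at 7.74 (nearest other array 8.08) for Mcm2, 7.28 (nearest other array 7.77) for Mcm3, 7.21 (nearest other array 7.51) for Mcm4, 6.93 (nearest other array 7.27) for Fen1 and 5.49 (nearest other array 6.28) for Tipin. Control replicate 4 was high in Mcm3 at 8.21 (nearest other array 7.62), in Pola2 at 8.47 (nearest other array 7.98) and in Prim2 at 7.85 (nearest other array 7.51). Control replicate 1 was low in Orc6 at 6.69 (nearest other array 7.13) and in Pole2 at 6.29 (nearest other array 6.54), and high in Chaf1a at 7.32 (nearest other array 6.86). Control replicate 3 was high in Rfc3 at 6.82 (nearest other array 6.54). ECP replicate 3 was low in Cdc45 at 7.08 (nearest other array 7.13), ECP replicate 4 low in Timeless at 6.40 (nearest other array 6.63) and ECP replicate 2 high in Clspn at 6.77 (nearest other array 6.59). The cause was not tested.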

How the results depend on the processing

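No member passed an adjusted p of 0.05 under any of 23 alternatives, and the smallest adjusted p of a member in them was 0.101 (trend and robust options, limma). The 10 members lower at an unadjusted p under 0.05 became 6 when genes below the median were left out, where 33 members were tested, 2 with the acinar level as a covariate and 3 without control replicates 1, 4 and 5. In these fits, in that order, 2.75%, 3.0% and 3.06% of all genes were lower at that p. The 0 members higher at that p became 1 with array weights, 1 without control replicates 1 and 4 and 1 without 1, 4 and 5. The 2 members without overlap became 5 without control replicates 1 and 4 and 7 without 1, 4 and 5, where fewer arrays are compared. For fits with fewer arrays, the shares of all genes without overlap or higher at that p were not counted. Across the fits with 1 array left out, 2.31% to 3.54% of all genes were lower at that p. With each array left out in turn, 8 to 11 members were lower and 0 to 1 higher at that p, 2 to 5 did not overlap, the median of all members was -0.10 to -0.033 and the step medians were -0.14 to -0.033 for licensing, -0.15 to -0.0049 for helicase, -0.095 to 0.023 for polymerase, -0.10 to -0.051 for clamp, -0.11 to -0.047 for single strand and flap processing, -0.27 to -0.19 for nucleotide synthesis, -0.084 to 0.024 for chromatin copying and -0.16 to 0.057 for fork protection. Some step medians moved by more than the spread between arrays. Clamp moved to -0.020 without genes below the median. Fork protection moved to 0.057 without ECP replicate 5, to 0.10 without control replicates 1 and 4 and to 0.034 with the smooth muscle level. Without control replicates 1, 4 and 5 the medians that moved were helicase at 0.067, polymerase at 0.039, single strand and flap processing at 0.0060, chromatin copying at 0.078 and fork protection at 0.070. With the acinar level they were polymerase at 0.047, single strand and flap processing at -0.0054 and fork protection at 0.14. Without genes below the median no fork protection gene was left. Of 52 members 30 kept their sign under every alternative, among them the 10 lower at an unadjusted p under 0.05, and 22 did not. Some alternatives cannot change the difference of a member and so say nothing about its sign. They are the 2 filters on dim genes, the mean of probe sets, eBayes with trend and robust, and the replicate block. With the smooth muscle level as a covariate, Gmnn at -0.0089, Gins1 at 0.070, Gins2 at 0.038, Cdc7 at 0.026, Fen1 at 0.033, Dut at -0.015, Dnmt1 at 0.018 and Timeless at 0.034 changed sign. With array weights, Mcm4 at 0.055, Gins1 at 0.086, Pola1 at 0.0011, Prim2 at 0.029, Fen1 at 0.017, Chaf1b at 0.011 and Dnmt1 at 0.036 changed sign. Without control replicates 1 and 4, Mcm4 at 0.094, Gins1 at 0.16, Gins2 at 0.043, Cdc7 at 0.059, Pola1 at 0.016, Pola2 at 0.020, Prim2 at 0.044, Fen1 at 0.081, Chaf1b at 0.011, Dnmt1 at 0.061 and Timeless at 0.10 changed sign. Without control replicates 1, 4 and 5, Mcm4 at 0.20, Gins1 at 0.14, Gins2 at 0.067, Cdc7 at 0.088, Pola1 at 0.12, Pola2 at 0.030, Prim2 at 0.049, Rpa1 at 0.0060, Rpa2 at 0.044, Fen1 at 0.071, Dna2 at 0.077, Chaf1b at 0.081, Dnmt1 at 0.078 and Timeless at 0.13 changed sign. With the acinar level as a covariate, Mcm4 at 0.17, Gins1 at 0.21, Gins2 at 0.059, Cdc7 at 0.10, Pola1 at 0.032, Pola2 at 0.064, Prim2 at 0.076, Fen1 at 0.098, Rrm2 at 0.023, Chaf1b at 0.063, Dnmt1 at 0.079 and Timeless at 0.14 changed sign. With the B cell level as a covariate, Mcm4 at 0.032, Gins1 at 0.035, Prim2 at 0.017, Chaf1b at 0.017 and Dnmt1 at 0.0055 changed sign. With each array centred on its median, Mcm6 at -0.0038 changed sign. With quantile normalisation repeated, Mcm6 at -0.015 changed sign. With each array left out in turn, members that changed sign ranged as follows: Mcm3 -0.024 to 0.16, Mcm4 -0.15 to 0.10, Mcm6 -0.072 to 0.069, Cdc45 -0.20 to 0.0072, Gins1 -0.18 to 0.089, Gins2 -0.13 to 0.0019, Cdc7 -0.15 to 0.038, Pola2 -0.11 to 0.032, Prim1 -0.15 to 0.044, Prim2 -0.047 to 0.057, Fen1 -0.21 to 0.0051, Dna2 -0.092 to 0.070, Dut -0.036 to 0.065, Chaf1b -0.13 to 0.063, Dnmt1 -0.083 to 0.024, Tipin -0.22 to 0.057. With the replicate block, 9 of 10 members kept an unadjusted p under 0.05, and 2.48% of all genes were lower at that p. The median of the members stayed at -0.074 by design. The numbers share no stated animal, and deviations of arrays with the same number correlated at -0.24 to 0.076, so they were not taken as pairs. The cause was not tested.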

Other observations

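Regulators of the cell cycle transcription program were measured beside the replication genes. Of 18 genes of the E2F family, their partners, the pocket proteins and the DREAM complex, 11 (61.1%) were lower in the ECP arrays and 2 (11.1%) were lower at an unadjusted p under 0.05, against 46.7% and 2.77% of all genes, with a median of -0.034. Lin54, the subunit of the DREAM complex that binds the CHR element, was at 8.58, 8.56, 8.56, 8.55 and 8.54 in ECP arrays, against 8.69, 8.83, 8.82, 8.61 and 8.92 in control arrays, so that the groups did not overlap. Its difference was -0.22 (SE 0.069, limma adjusted p = 0.700). E2f8, a repressor of the E2F family, was at 7.55, 7.66, 7.94, 7.60 and 7.16 in ECP arrays, against 7.90, 7.88, 7.82, 8.05 and 7.93 in control arrays, with 4 of 5 ECP arrays below the lowest control array. It differed by -0.33 (SE 0.12, limma adjusted p = 0.836).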
